A study of Mus musculus with 8 samples.

Results

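The fatty acid desaturases and elongases were followed as 10 genes chosen by name: the stearoyl-CoA desaturases Scd1, Scd2 and Scd3, the polyunsaturated fatty acid desaturases Fads1 and Fads2, and the elongases Elovl1, Elovl3, Elovl5, Elovl6 and Elovl7. They were read by 13 of the 55681 gene probes on the array. Of the 10 genes, 9 were bright enough to be tested, among 25064 genes or transcribed features in all, and Elovl3 was not. Gonadal white fat was taken from 4 Rap1-/- and 4 wild-type (WT) mice at 10 weeks of age, and RNA from each animal was hybridised to 1 Agilent array with a single dye. Both genotypes were on the same mixed C57BL6/129SV background (90% and 10%). Per the study's methods the animals were female, fed standard chow and taken before the knockouts become obese. Rap1-/- mice lack RAP1, a telomere protein that also binds along chromosome arms, in the whole body. They descend from Rap1 flox/flox mice crossed to an EIIa-cre line, in which the recombinase acts in the early embryo, so the deletion is in every tissue and is not restricted to fat cells. The study profiled fat at this age to find transcriptional changes that precede obesity, and the comparison here asks whether the enzymes that shape fatty acids were among them.

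Fat cells build palmitate from acetyl-CoA and then modify it in the endoplasmic reticulum. Elongases of the Elovl family catalyse the first and rate-limiting step of a cycle that lengthens the chain by a pair of carbons from malonyl-CoA, and desaturases introduce double bonds with electrons passed on by cytochrome b5. In white fat the products, chiefly oleate and palmitoleate, are esterified into stored triglyceride, and many of these genes are known targets of the lipogenic transcription factors SREBP1c, LXR and ChREBP.

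None of the 9 tested genes differed between Rap1-/- and WT fat at an adjusted p under 0.05 (limma with Benjamini-Hochberg adjustment over all 25064 genes, 0 of 9 members called, against 0.00399% of all genes). At an unadjusted p under 0.05 the count was also 0 of 9, against 4.98% of all genes. The largest difference was in Elovl6, the elongase that converts palmitate to stearate, whose mean signal was 2.08-fold lower in Rap1-/- (log2 difference -1.06 ± 0.50, SE, n = 4 arrays per genotype, limma adjusted p = 0.874). The next largest was in Elovl7, 1.40-fold higher (0.49 ± 0.29, limma adjusted p = 0.874). Means were lower in Rap1-/- for 6 members and higher for 3, and the median difference was -0.15, where 59.9% of all genes had a lower and 40.1% a higher mean in Rap1-/- and the median over all genes was -0.04. The members' median was 0.07 when arrays were scaled to the E1A spike-in controls, a scaling that moved the median of all genes to 0.19, so no common direction of the family is given. In whole tissue, fewer cells of a type and less RNA per cell cannot be told apart.

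The arrays were of similar quality. The 75th percentile of the processed signal lay between 302 and 497 intensity units, and the share of spots that stood well above background between 59.7% and 65.2%, with 0 saturated. All values below are log2 signals relative to that percentile on the same array, and the number of arrays limits their precision. The labels do not say more of the animals' litters or dissections, so whether these 8 samples are independent is not known. The limma p-values set each difference against the spread within the genotypes. The deleted gene, Terf2ip, read 0.06, 0.26, 0.49 and 0.23 on the WT arrays with probe A_52_P381806, which was at background level on all 4 Rap1-/- arrays. Its other probe, A_55_P2094079, was brighter in Rap1-/- (log2 difference 2.38 ± 0.09, SE, limma adjusted p = 6.63e-05), and Terf2ip was the 1 gene called among all genes. The 6 white adipocyte markers, Adipoq, Fabp4, Plin1, Cidec, Lipe and Lep, were well above background on all 8 arrays. Each slide carried 2 arrays of each genotype, but WT always lay at positions 1 and 2 and Rap1-/- at positions 3 and 4, so position on the slide and genotype cannot be told apart.

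**Figure D1:**
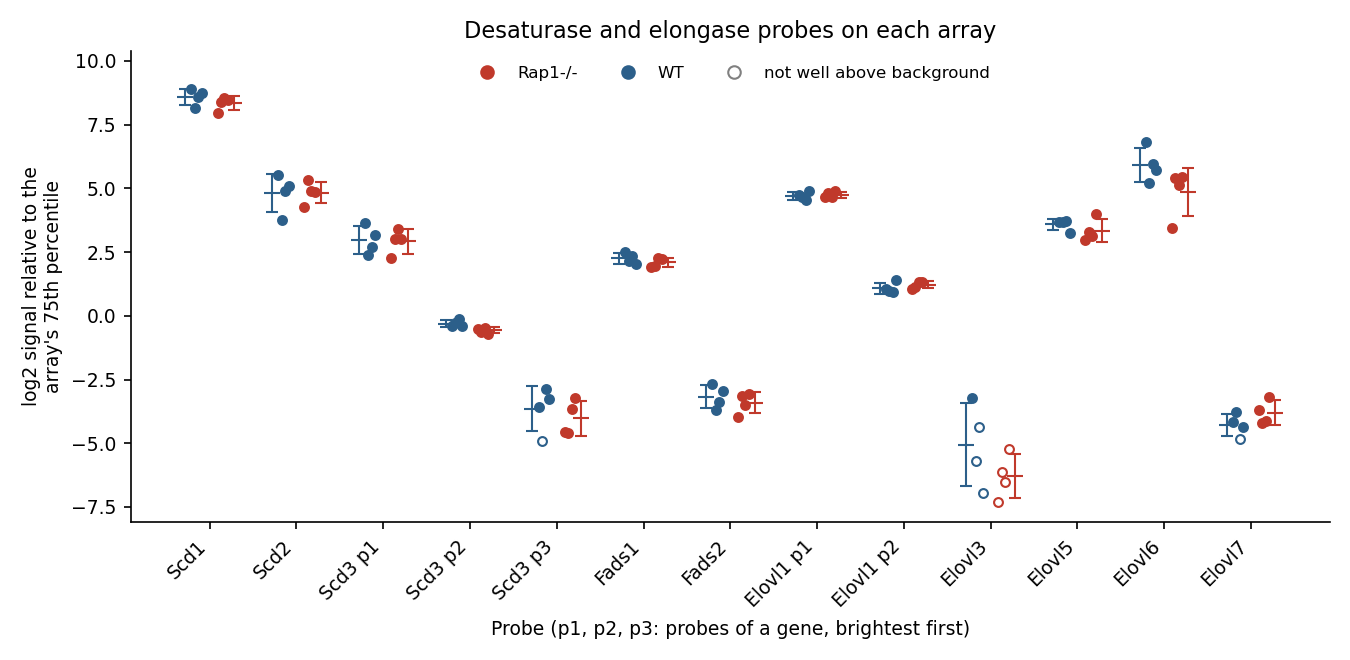
Each point is 1 array's log2 signal relative to that array's 75th percentile (y axis) for each of the 13 probes (x axis), with the mean and SD of the 4 arrays per genotype beside the points and open points not well above background. The genotypes overlap on all probes but the dimmer Scd3 probe p2, and among the probes that stand for a gene Elovl6 and Scd2 have the widest ranges. Heights of different probes cannot be compared.

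Scd1 is the main stearoyl-CoA desaturase of white fat, and it makes oleate and palmitoleate from stearate and palmitate. Its probe (A_52_P682382) read 7.95, 8.41, 8.56 and 8.47 in the knockouts and 8.90, 8.16, 8.58 and 8.73 in WT. The genotypes overlapped, since replicate 2 of WT lay below 3 of the Rap1-/- arrays, and the lowest of all arrays was replicate 1 of Rap1-/-. The difference was -0.24 ± 0.19 (SE), or 1.18-fold lower, with a 95% interval from -0.68 to 0.19 and a limma adjusted p of 0.884. It was -0.020 with quantile normalisation and -0.020 with the spike-in scaling, -0.061 in the deposited value table and -0.11 without replicate 1 of Rap1-/-.

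Scd2, an isoform abundant in brain and in developing skin that is also made in fat, had almost the same mean in both genotypes. Probe A_51_P129464 read 4.29, 5.34, 4.88 and 4.85 in the knockouts and 5.53, 3.77, 4.90 and 5.08 in WT. The highest and the lowest of the 8 readings were both WT arrays, and the Rap1-/- arrays lay between them. The difference was 0.02 ± 0.37 (SE) with a 95% interval from -0.84 to 0.88 (limma adjusted p = 0.997). Without WT replicate 2 the difference was -0.33 ± 0.26.

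Scd3, best known from the sebaceous glands of skin, had 3 probes. The brightest (A_55_P2099594), which stood for the gene, read 2.27, 3.00, 3.43 and 3.01 in the knockouts and 3.64, 2.38, 2.68 and 3.18 in WT. Its groups overlapped over nearly their whole range, with a difference of -0.05 ± 0.32 (SE, limma adjusted p = 0.991) whose sign turned with the scaling, to 0.025 with median scaling and 0.18 with the spike-ins. The probe A_55_P2052759 was dimmer and steadier, and read -0.50, -0.62, -0.46 and -0.71 in the knockouts and -0.41, -0.29, -0.13 and -0.41 in WT. All 4 Rap1-/- readings lay below all 4 WT readings on this probe, the only kept member probe of 12 without overlap, where 3.16% of all kept probes did not overlap. Its unadjusted limma p was 0.033, on a scale where 4.83% of kept probes were under 0.05. The difference was -0.26 ± 0.10 (SE), with an exact two-sided permutation p of 0.0286, the smallest this design can give, and a limma p adjusted over all probes of 0.897. The dimmest probe (A_51_P446045) read -4.57, -4.59, -3.67 and -3.21 in the knockouts and -3.56, -4.90, -2.86 and -3.27 in WT, where WT replicate 2 was not well above background. Its groups overlapped, and the difference was -0.36 ± 0.48 (SE).

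The 3 probes of Scd3 did not vary alike over the 8 arrays. The brightest followed Scd1 (Pearson r 0.88) and Scd2 (0.81) more closely than it followed the other Scd3 probes (-0.22 with A_55_P2052759 and 0.49 with A_51_P446045). It also followed Fads2 (0.81) and Elovl6 (0.69), which are not Scd genes. Without replicate 1 of each genotype the values were 0.69 for Scd1, 0.49 for Fads2 and -0.16 for Elovl6. For Scd2 the value was 0.66 without replicates 1 and 2 of WT. The Scd genes are close paralogs, and the probe sequences were not used here, so how much of each reading came from a paralog was not tested.

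Fads1 and Fads2 are the desaturases that make long polyunsaturated fatty acids from dietary linoleate and alpha-linolenate, Fads2 acting before Fads1. Fads1 (A_51_P358112) read 1.93, 1.97, 2.28 and 2.24 in the knockouts and 2.50, 2.13, 2.35 and 2.03 in WT. The genotypes overlapped, and the difference of -0.15 ± 0.14 (SE, 95% interval -0.46 to 0.16, limma adjusted p = 0.895) was 0.073 with the spike-in scaling. Fads2 (A_66_P130115) read -3.96, -3.14, -3.49 and -3.06 in the knockouts and -2.66, -3.68, -3.39 and -2.95 in WT. Replicate 1 of Rap1-/- was the lowest array and replicate 1 of WT the highest, with the other 6 interleaved. The Fads2 difference was -0.24 ± 0.27 (SE, 95% interval -0.86 to 0.38, limma adjusted p = 0.905). It was -0.018 with the spike-in scaling, -0.058 without replicate 1 of Rap1-/- and -0.072 without replicate 1 of WT.

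Elovl6 sets the balance of palmitate against longer chains and works in series with Scd1. Its probe (A_51_P463440) read 3.45, 5.42, 5.12 and 5.46 in the knockouts and 6.82, 5.21, 5.94 and 5.70 in WT. All of the Rap1-/- arrays lay below the WT mean and 3 of the 4 WT arrays lay above every Rap1-/- array, but WT replicate 2 lay among the knockouts. Replicate 1 of Rap1-/- stood apart, at 3.45 against 5.12 on the nearest knockout array. The mean was 4.86 ± 0.95 for the knockouts and 5.92 ± 0.68 for WT (SD over 4 arrays), and the difference of -1.06 had a 95% interval from -2.21 to 0.10 and an exact two-sided permutation p of 0.0857. Without replicate 1 of Rap1-/- the difference was -0.59, without replicate 1 of WT it was -0.75, and it was -1.58 within slide 1 and -0.53 within slide 2.

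Elovl5, which lengthens polyunsaturated fatty acids between the steps of Fads2 and Fads1, showed a split of another kind. Probe A_51_P505493 read 2.96, 3.27, 3.12 and 3.98 in the knockouts and 3.69, 3.68, 3.73 and 3.25 in WT. In each genotype 3 arrays lay close together and replicate 4 lay apart, high in Rap1-/- and low in WT, so that replicate 4 of Rap1-/- exceeded every WT array. The difference was -0.26 ± 0.22 (SE, 95% interval -0.77 to 0.26, limma adjusted p = 0.890). Within slide 1 it was -0.57 and within slide 2, which held both of the arrays that stood apart, it was 0.05.

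Elovl1, a broadly expressed elongase of saturated very long chains used in sphingolipids, was the steadiest member. Its brighter probe (A_55_P2151273) read 4.66, 4.82, 4.64 and 4.88 in the knockouts and 4.72, 4.66, 4.53 and 4.90 in WT. The 8 readings spanned only 0.38 log2 units and the genotypes overlapped throughout, with a difference of 0.05 ± 0.11 (SE, 95% interval -0.20 to 0.29, limma adjusted p = 0.956). The second probe (A_55_P2022861) gave 1.07, 1.12, 1.33 and 1.35 in the knockouts and 1.05, 0.96, 0.94 and 1.41 in WT, where WT replicate 4 was the highest. Its difference was 0.13 ± 0.13 (SE).

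Elovl7 and Elovl3 were dim. Elovl7, an elongase of saturated long chains, read -3.68, -4.20, -4.14 and -3.17 in the knockouts and -4.17, -3.77, -4.84 and -4.36 in WT on probe A_52_P354682, with WT replicate 3 not well above background. All 4 Rap1-/- arrays lay above the WT mean, but WT replicates 1 and 2 lay among them, and the other 2 WT arrays lay below every Rap1-/- array. The difference of 0.49 ± 0.29 (SE, 95% interval -0.17 to 1.15, exact two-sided permutation p = 0.171) was 0.03 within slide 1 and 0.95 within slide 2. It was 0.04 after normexp background correction, a model-based subtraction of local background, and 0.20 in the deposited value table. Elovl3, an elongase known from brown fat, liver and sebaceous glands, was well above background on 1 of the 8 arrays, WT replicate 1. Its probe (A_51_P324633) read -7.31, -6.14, -6.53 and -5.22 in the knockouts and -3.20, -5.70, -4.35 and -6.96 in WT. Since only 1 array measured Elovl3, no fold is given and the gene was not tested.

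**Figure D2:**
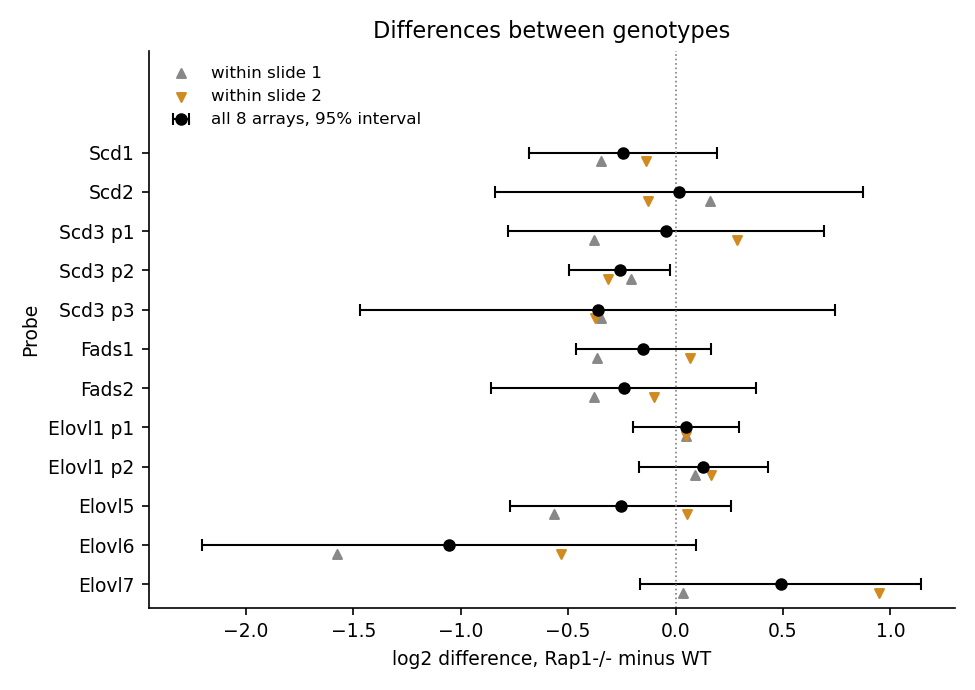
Log2 difference, Rap1-/- minus WT, for the 12 kept probes (y axis), with circles and bars for the estimate over all 8 arrays with its 95% interval and triangles for the difference within each slide. All intervals but that of Scd3 probe p2 cross 0, and for Elovl6 the estimate was -1.58 within slide 1 and -0.53 within slide 2.

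The members differed widely in how steady they were. The SD within a genotype, pooled over both, was 0.83 for Elovl6, higher than for 97.3% of all tested genes, and 0.61 for Scd2, 0.52 for Scd3, 0.46 for Elovl7 and 0.43 for Fads2. It was 0.35 for Elovl5, 0.30 for Scd1, 0.20 for Fads1 and 0.14 for Elovl1, where the median over all genes was 0.20. The probes of Elovl7 and Fads2 were dim, with WT means of -4.29 and -3.17. The SE of their differences was 0.29 and 0.27, and 0.11 and 0.14 after normexp background correction. For Elovl6 the SE was 0.50, and 0.45 after that correction. The extremes fell largely on the same arrays. Replicate 1 of Rap1-/- was the lowest of the 8 arrays for 6 of the 9 members, and replicate 1 of WT was the highest for 6 of the 9. The mean deviation of the members from their own averages was -0.53, 0.02, -0.03 and 0.22 on the Rap1-/- arrays and 0.48, -0.24, -0.02 and 0.10 on the WT arrays. The arrays at both ends thus belonged to different genotypes and lay on the same slide, while the other 6 overlapped. Replicates share a number but no source in the labels.

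**Figure D3:**
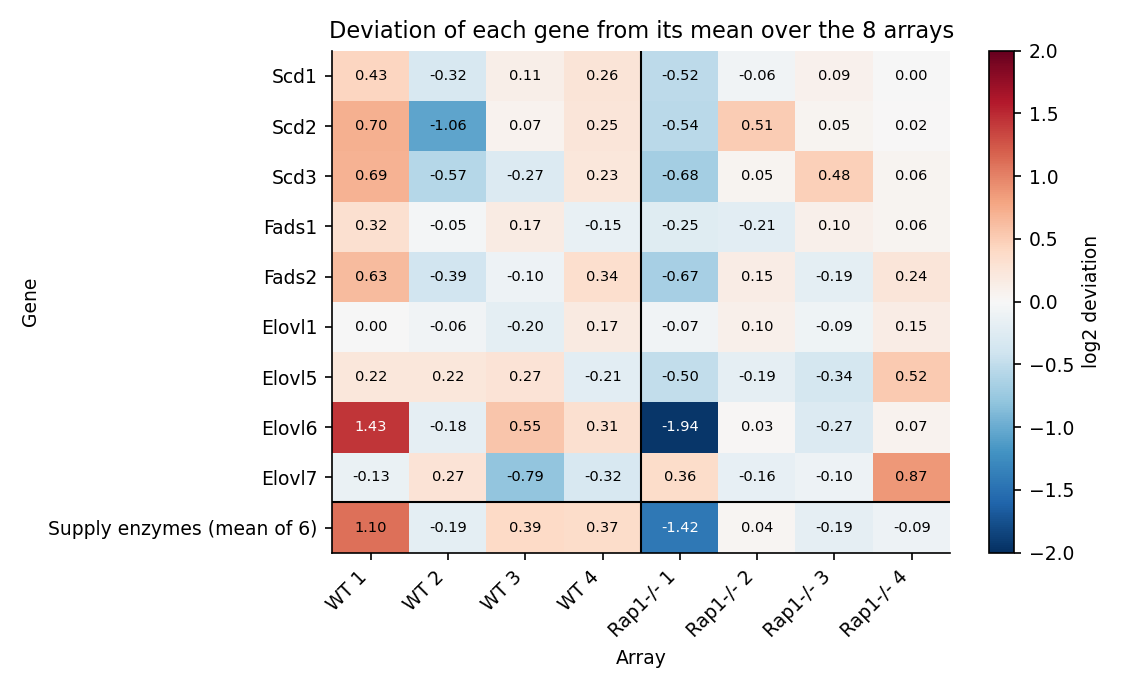
Log2 deviation of each tested gene from its own mean over the 8 arrays, with genes as rows, arrays as columns and a last row for the mean of the 6 enzymes that supply acetyl-CoA, malonyl-CoA, NADPH and palmitate. Replicate 1 of WT (column on the left) is high and replicate 1 of Rap1-/- is low in most rows, most of all for Elovl6 and the supply enzymes, while Elovl1 and Elovl7 do not follow.

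Over the 8 arrays Scd1 varied most closely with Elovl6 (Pearson r 0.89, Spearman rho 0.83), Fads2 (0.88 and 0.81) and Scd3 (0.88 and 0.81), and Elovl6 with Fads2 (0.86 and 0.83). These values describe 8 arrays that share their genotypes and slides, and are among 36 pairs. Without the 2 arrays farthest from the median of Scd1, replicate 1 of each genotype, they were 0.56 for Elovl6, 0.63 for Fads2 and 0.69 for Scd3, and the value for Elovl6 and Fads2 was 0.45. For Scd1 and Elovl5 the value went from 0.32 to -0.35, and for Scd1 and Fads1 from 0.68 to 0.14, so both rested on those arrays. Over all 8 arrays the value was -0.47 for Elovl7 and Scd1, -0.42 for Elovl7 and Elovl6, and 0.04 for Scd2 and Elovl5.

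The 250 bases before the transcription start are shown for 3 members that act on different substrates: Elovl6 on saturated chains, and Fads2 and Elovl5 on polyunsaturated ones. Sequences are from RefSeq on GRCm38.p6, each read 5′ to 3′ along the gene. Such windows were matched for 6 of the 10 members, with 7 windows in all, and Scd1, Scd2, Fads1 and Elovl3 were not matched. Capitals mark a match, on either strand, to any of the following motifs, and no matches overlap one another here. They are CACGTG (the E-box bound by SREBP1c, ChREBP and others), CCAAT (bound by NF-Y) and TCACNCCAC (a sterol response element). The others are AGGTCA (a half-site, not a full element, of nuclear receptors such as LXR and PPAR) and TTAGGG (the telomere repeat unit).
Elovl6, chr3:129532136-129532385, plus strand: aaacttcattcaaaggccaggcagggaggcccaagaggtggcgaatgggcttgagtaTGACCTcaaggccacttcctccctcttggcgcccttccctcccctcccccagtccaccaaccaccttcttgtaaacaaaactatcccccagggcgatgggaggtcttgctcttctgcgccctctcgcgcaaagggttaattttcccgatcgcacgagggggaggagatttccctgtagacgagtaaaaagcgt
Elovl5, chr9:77917115-77917364, plus strand: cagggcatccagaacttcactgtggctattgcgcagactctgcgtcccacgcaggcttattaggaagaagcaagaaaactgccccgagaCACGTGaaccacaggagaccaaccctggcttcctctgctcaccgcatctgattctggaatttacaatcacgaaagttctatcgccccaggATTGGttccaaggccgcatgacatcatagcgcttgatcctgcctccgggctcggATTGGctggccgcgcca
Fads2, chr19:10101504-10101753, minus strand: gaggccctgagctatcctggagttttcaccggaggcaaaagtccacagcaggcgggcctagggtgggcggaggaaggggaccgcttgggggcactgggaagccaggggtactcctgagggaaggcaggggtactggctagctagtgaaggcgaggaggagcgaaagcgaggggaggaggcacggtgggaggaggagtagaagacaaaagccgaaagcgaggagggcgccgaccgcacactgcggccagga
The Elovl6 window held 1 AGGTCA, on the opposite strand, its leftmost base as printed 193 bases before the start, as do 14% of the 32851 windows searched. The Elovl5 window held 1 CACGTG at 161 bases and 2 CCAAT at 71 and 17 bases, which occur in 6.02% and 33.8% of windows. Of the other windows, those of Elovl1 held 1 CCAAT and 1 AGGTCA, and those of Fads2, Scd3 and Elovl7 held none. No member window held TCACNCCAC, found in 1.05% of windows, or TTAGGG, found in 9.32%. A match is a run of letters, and no binding was measured here.

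Ratios between members on the same array were compared for 4 pairs, since a factor common to all probes of an array cancels in them. Scd1 over Elovl6, enzymes that act in series, read 4.50, 2.99, 3.44 and 3.01 in the knockouts and 2.08, 2.95, 2.64 and 3.02 in WT on the log2 scale. Only replicates 1 and 3 of Rap1-/- exceeded every WT array. The mean log2 ratio was 0.81 ± 0.41 (SE) higher in Rap1-/-, with a 95% interval from -0.20 to 1.83 and an exact two-sided permutation p of 0.0857 (0.286 after Benjamini-Hochberg adjustment over the 4 pairs). It was 0.47 without replicate 1 of Rap1-/-, 1.23 within slide 1 and 0.39 within slide 2. Elovl6 over Elovl5 differed by -0.80 ± 0.50 (95% interval -2.03 to 0.43, exact permutation p = 0.143, adjusted 0.286), and by -0.45 without replicate 1 of Rap1-/- and -0.53 without replicate 1 of WT. Scd1 over Scd2 differed by -0.26 ± 0.26 (interval -0.90 to 0.38, exact permutation p = 0.400, adjusted 0.533) and Fads1 over Fads2 by 0.09 ± 0.28 (interval -0.59 to 0.77, exact permutation p = 0.629). None of the 4 ratios separated the genotypes. A ratio shows unequal change of its genes and not which gene changed.

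**Figure D4:**
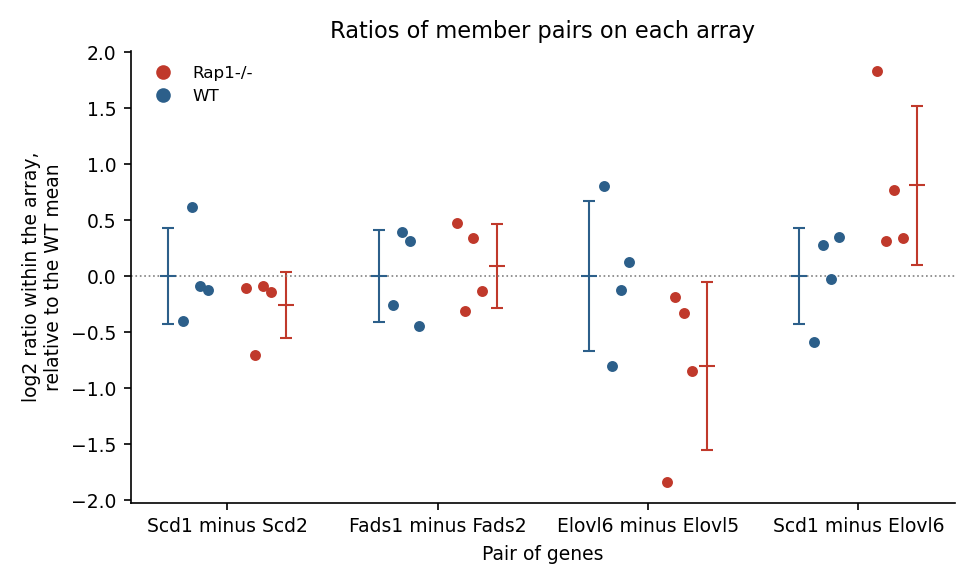
Log2 ratio of paired members on each array (y axis), drawn relative to the WT mean of that pair, for the 4 pairs on the x axis, with the mean and SD of the 4 arrays per genotype. The genotypes overlap for all 4 pairs, and Rap1-/- replicate 1 lies farthest out for both ratios that contain Elovl6.

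The members were set beside 41 other genes of the same pathway, in 6 lists, of which 39 were tested. None passed the adjusted threshold in either direction, 6 had an unadjusted p under 0.05 with a lower mean in Rap1-/- (3.31% of all genes did), and 0 did so with a higher mean (1.67% of all genes). Their median difference was -0.19, with 32 lower and 7 higher, and it was 0.04 with the spike-in scaling. The 6 enzymes that supply acetyl-CoA, malonyl-CoA, NADPH and palmitate (Acly, Acss2, Acaca, Acacb, Fasn and Me1) had the most uniform values, all with a lower mean in Rap1-/- and a median of -0.79. Among them Me1, malic enzyme and a source of NADPH, differed by -0.94 ± 0.39 (SE) and Acaca, which makes malonyl-CoA, by -0.77 ± 0.32, each with a limma adjusted p of 0.874. Acaca did not overlap between the genotypes, as for 3.26% of all genes, and the difference of Acss2, an acetyl-CoA synthetase, was -0.94 ± 0.44. The mean of these 6 enzymes on each array was -1.42, 0.04, -0.19 and -0.09 in the knockouts and 1.10, -0.19, 0.39 and 0.37 in WT, relative to their average over all arrays. Replicate 1 of Rap1-/- and replicate 1 of WT again lay at the ends, as they did for Elovl6.

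The partners of the elongases and desaturases had smaller differences. Of the 6 other enzymes of the elongation cycle 4 were lower and 2 higher (median -0.10), with none at an unadjusted p under 0.05, and the reductase Tecr gave -0.40 ± 0.22 (SE), the ketoacyl reductase Hsd17b12 -0.30 ± 0.20 and the dehydratase Hacd4 0.42 ± 0.19. Of the 5 genes listed as electron supply of the desaturases 3 were lower (median -0.06). Por, cytochrome P450 reductase, differed by -0.36 ± 0.15 and Cyb5b, the cytochrome b5 of the outer mitochondrial membrane, by -0.47 ± 0.19, both at a limma adjusted p of 0.874, but a second probe of Cyb5b gave -0.03. Cyb5r3, the reductase of cytochrome b5, gave 0.09 ± 0.11.

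Of the other desaturases and elongases 6 of 7 were tested, all but Elovl2, and 5 had a lower mean (median -0.11). Fads6, an uncharacterised member of the family, did not overlap between genotypes, as for 3.26% of all genes. It differed by -0.50 ± 0.13 (SE, limma adjusted p = 0.874). This probe was dim, with means of -4.27 in Rap1-/- and -3.77 in WT, and the other, dimmer Fads6 probe gave 0.05. Scd4, the isoform described in heart, gave -0.26 ± 0.16, and Degs2, a ceramide desaturase and hydroxylase, -0.21 ± 0.14. Of the 5 acyl-CoA synthetases, which activate fatty acids, the 4 tested (all but Acsl6) had a median of -0.05, and Acsl1, the main one of adipocytes, gave -0.45 ± 0.21.

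Among 12 regulators of these genes 10 had a lower mean and 2 a higher one (median -0.17). Srebf1, which encodes SREBP1, did not overlap between genotypes, as for 3.26% of all genes. Its difference was -0.87 ± 0.38 (SE), again at a limma adjusted p of 0.874. It was -1.40 within slide 1 and -0.34 within slide 2. Pparg, the master regulator of adipocytes, differed by -0.28 ± 0.11 and Nr1h3, which encodes LXRα, by -0.16 ± 0.08.

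Markers of other cell types varied between the arrays, and their part in the members' values was not tested. The mean of 6 white adipocyte markers lay between -0.22 and 0.09 on the Rap1-/- arrays and between -0.07 and 0.10 on the WT arrays, relative to its average. Of these markers 5 had a lower mean in Rap1-/- (median difference -0.19) and Lep, at 0.63, a higher one. Cidec (-0.31), Fabp4 (-0.27) and Lipe (-0.27) had an unadjusted limma p under 0.05, as did 3.31% of all genes with a lower mean. Cidec and Fabp4 did not overlap between genotypes, as for 3.26% of all genes, but a dimmer probe of Cidec overlapped and gave -0.18. In the other direction, Upk1b of mesothelium (0.64) and Krt14 of skin (0.36) met both criteria. An unadjusted limma p under 0.05 with a higher mean was found for 1.67% of all genes. Each of these markers had a limma adjusted p of 0.874. Markers of skeletal muscle, 6 of 6 tested, ranged from -5.37 to 3.56 in Rap1-/- and from -0.72 to 2.38 in WT. They were low on replicates 1 and 4 of Rap1-/-, which lay at opposite ends of the Rap1-/- arrays for the members' mean. Brown or beige adipocyte markers ranged from -0.69 to 0.79 and from -0.46 to 0.93, with Ucp1 well above background on 3 arrays of each genotype. All 6 mesothelial markers had a higher mean in Rap1-/- (median 0.60), from 0.14 to 0.44 against -1.04 to 0.26. The median differences were 0.20 for 6 fibroblast and preadipocyte genes, 0.15 for 5 macrophage genes, -0.04 for 6 endothelial genes and 0.09 for 4 genes of sebaceous glands and skin. Of 5 genes of the ovary and reproductive tract, which lies beside this fat pad, Star and Ovgp1 were well above background on all 8 arrays (differences of -0.04 and -0.02), and Cyp19a1, Amh and Zp3 on 0 of 8.

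The genes whose pattern over the 8 arrays was most like the mean of the 9 members were 2310061I04Rik and Rtn4ip1 (Pearson r 0.97 for both), Rrp8 (0.96), Ptges2 (0.96), Mfsd3 (0.95) and Tufm (0.95). They were picked as the highest of all named genes that were not members, of which 86 had a value above 0.9, so high values were bound to occur. Without replicate 1 of each genotype, the 2 arrays farthest from the median, they were 0.78 for Tufm to 0.98 for Rtn4ip1. For Elovl7 alone the most similar were Trmt10a (0.98), Sox12 (0.96) and Sde2 (0.95), and for Scd3 they were Rrp8 (0.94), Lpar3 (0.93) and Uhmk1 (0.93).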

How the data were processed

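Total RNA from gonadal white fat was labelled with Cy3 by the authors and hybridised to Agilent mouse arrays, 1 per sample, with RNA integrity numbers from 6.5 to 8.5 per the labels. Per the file headers, images were read with Feature Extraction 10.7.3.1 on a design built for mm9. The deposited scanner files hold linear intensity per spot, background-subtracted but not normalised between arrays, and flags for spots above background or outlying. A table of log2 values was also deposited, which matched a recomputation with normexp (offset 50) and quantile normalisation at r of at least 0.999985 on each array. It was used as an alternative. The authors' notes name limma with no version.

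The log2 of the processed signal had each array's 75th percentile subtracted, and spots of a probe without outlier flags were averaged. A probe was kept if 4 or more of the 8 arrays had it well above background (33982 of 55681), 13 probes without a value on some array being left out. The scanner files name no genes, so names came from matching RefSeq accessions to the GRCm38.p6 annotation (26056 probes, 46.8%), and the others were tested under their accession. The brightest kept probe stood for a gene. The test of genotype was limma's moderated one (version 3.58.1, R 4.3.3), and its p-values were adjusted by Benjamini-Hochberg over all genes, or over all probes where stated, with a threshold of 0.05. Exact permutation tests ran over all assignments of 4 and 4 arrays. The fit was tested on simulated data. Plots used matplotlib 3.10.9 (Python 3.11.15).

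The members, pathway lists, marker lists and tests were chosen with earlier results of these data known. Named were all members with every probe, Terf2ip, up to 3 genes per pathway list by smallest p, and the genes most like the members' mean (6), Elovl7 (3) and Scd3 (3). Samples were grouped by their labels. Alternatives covered scaling, background correction, the deposited table, filters, how probes stand for a gene, blocks for slide and for replicate number, fits within each slide, the variance model and leaving out each array.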

Additional observations from a re-analysis of the deposited data

Results flagged for a closer look

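In 3 of the 32 sets of 4 arrays examined, 1 array lay farther from its nearest neighbour than Dixon's test allows at the 95% level. Chance flags about 1 set in 20. Elovl6 (A_51_P463440) on Rap1-/- replicate 1 read 3.45, where the nearest knockout array read 5.12 and the gap was 0.831 of the range. Elovl5 (A_51_P505493) on WT replicate 4 read 3.25, where the nearest WT array read 3.68 (0.896 of the range). The log2 ratio of Scd1 over Scd2 was 3.07 on Rap1-/- replicate 2, where the nearest knockout array was at 3.62 (0.910 of the range). No cause was tested for any of the 3.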

How the results depend on the processing

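No member and no pathway gene passed the adjusted threshold under any of the 21 alternatives to the reported processing. The number of genes called over the whole array was 1, and it was 2 with normexp background correction, the deposited value table or a trended and robust variance, and 0 within slide 1 or slide 2 alone, where 1134 and 882 genes had an unadjusted p under 0.05 (limma). Members with an unadjusted limma p under 0.05 numbered 1 within slide 1 (Elovl5) and 1 within slide 2 (Elovl6). They numbered 1 without Rap1-/- replicate 4 (Elovl5) and 2 without WT replicate 2 (Elovl6 and Scd1), against 0 over all arrays. The count over all 25064 genes also rose, from 1248 with all arrays to 1340 without Rap1-/- replicate 4 and 2305 without WT replicate 2. The median difference of all genes was -0.04, and 0.03, 0.00 and 0.19 with median scaling, quantile normalisation and spike-in scaling. The pathway median of -0.19 was 0.04 with the spike-ins, and the members' median of -0.15 was 0.07 with the spike-ins and 0.05 within slide 2. Scd1, Fads2, Elovl6 and Elovl7 kept their sign in every alternative that gave a value, but not their size: the range was -0.39 to -0.020 for Scd1, -0.41 to -0.018 for Fads2, -1.58 to -0.53 for Elovl6 and 0.03 to 0.95 for Elovl7. Elovl7 could not be fitted when all 8 arrays had to be above background. Scd3 turned to 0.025 with median scaling, 0.18 with the spike-ins and 0.29 within slide 2, and ranged from -0.24 to 0.18 with 1 array left out. Fads1 turned to 0.073 with the spike-ins and to 0.066 within slide 2, and Elovl5 to 0.054 within slide 2. Scd2 turned to -0.13 within slide 2 and ranged from -0.33 to 0.25 with 1 array left out, as Elovl1 did from -0.010 to 0.11. The log2 ratio of Fads1 over Fads2 turned to -0.044 in the deposited table and ranged from -0.057 to 0.23 with 1 array left out. The causes of these turns were not tested.

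The labels number the arrays of both genotypes from 1 to 4, but arrays of the same number did not deviate together (correlations of their deviations from the genotype means of -0.22, -0.13, -0.13 and -0.16), and 0 of 4 Rap1-/- arrays correlated best with the WT array of their own number, so the numbers were not taken as pairs. With the number as a replicate block 1 gene and 0 members were called. Dim signals limit Elovl3 and Elovl7, which were not well above background on every array.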
